A study of Homo sapiens with 18 samples.

Results

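The chaperones of the lumen of the endoplasmic reticulum (ER) are described here as 10 genes, led by HSPA5, which encodes BiP. They were chosen by symbol: every row of the count table whose Ensembl identifier carries one of the symbols HSPA5, HSP90B1, HYOU1, CALR, CANX, SDF2L1, MANF, CRELD2, SIL1 and FICD was taken. That gave 10 genes of 57736 in the table. All 10 were among the 17317 genes with enough counts to be tested.

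ER lumen chaperones bind newly made secretory and membrane proteins, hold them while they fold and help to mark those that do not. BiP is the HSP70 of the ER, and in unstressed cells it also binds the lumenal side of the stress sensors IRE1 (ERN1), PERK (EIF2AK3) and ATF6. When unfolded protein builds up, the unfolded protein response raises transcription of chaperone genes through ATF6, through XBP1s, which is made when IRE1 splices XBP1 mRNA, and through ATF4 downstream of PERK. Tunicamycin, the stressor used here, blocks the first step of N-linked glycosylation.

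RNA of A1847 cells, a human high-grade serous ovarian cancer line, was measured by 3′ mRNA sequencing in 18 libraries, 3 for each of 6 groups. The cells were wild type for CARM1 and XBP1 (WT), CARM1 knock-out (koCARM1, XBP1 wild type) or XBP1 knock-down (shXBP1, CARM1 wild type), each kept under control conditions (ctr, 0 μg/ml tunicamycin) or given tunicamycin (TM) at 5 μg/ml for 8 h. CARM1 is an arginine methyltransferase. The knock-out came from a lentiviral CRISPR vector and the knock-down from a short hairpin; whether koCARM1 cells were 1 clone, and whether WT cells carried a control vector, is not given in the sources used here.

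Several facts of the whole series stand before the results. Libraries held 9367462 to 13917212 counts. The koCARM1 libraries stood apart: their log2 levels correlated with those of WT and shXBP1 libraries at r = 0.731 to 0.775 across genes, against 0.961 to 0.989 for every other pair. The summed level of 8 epithelial ovarian carcinoma markers was 309.5 to 485 CPM, the standard unit of counts scaled to a common library size, in WT, 2262 to 2777 in koCARM1 and 130.4 to 214 in shXBP1 libraries. MUC16 had no count in any library, and PAX8, KRT7 and MSLN were at 0.0781, 0.497 and 0.0373 CPM on average in WT cells, at 0.0609, 0.396 and 0.0263 CPM in shXBP1 cells and at 52.3, 390.2 and 9.35 CPM in koCARM1 cells. KRT18 was present in all 3 genotypes, at 331.5, 1337 and 144 CPM in WT, koCARM1 and shXBP1. The 5 markers of other cell types that matched summed to at most 1.70 CPM in a WT library and 1.12 CPM in a shXBP1 library, and to 5.15 to 7.46 CPM in koCARM1 libraries, most of it CD68. In comparisons of koCARM1 with WT, loss of CARM1 and whatever else separates these libraries cannot be told apart. CARM1 mRNA was at 160 to 165 CPM in the WT control libraries and at 71.5 to 77.6 CPM in the koCARM1 control libraries, a log2 difference of -1.17, and in shXBP1 control libraries it was higher than in WT by 0.22. Reads from the 3′ end need not cover an edited site and do not check the edit. XBP1 mRNA was lower in shXBP1 than in WT by a log2 difference of -0.86 under control conditions and of -1.06 with tunicamycin. Its reads do not separate the spliced from the unspliced form.

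Promoter sequence is shown first because ER chaperone genes are known for shared stress elements. The ER stress response element (ERSE), which NF-Y and ATF6 or XBP1s bind, reads CCAAT, 9 bases of any kind, then CCACG. ERSE-II reads ATTGG, 1 base of any kind, then CCACG. Both were searched on both strands of RefSeq promoter windows (build GRCh38.p14), 300 bases long, from 250 before to 50 after each annotated start, together with TGACGTGG, the core of the unfolded protein response element, and ACGTCA, a core shared by ATF6 and cyclic AMP response elements. All 10 genes matched the promoter table, in 13 windows, 4 of them for CANX. The 4 genes printed at length are BiP, GRP94 (HSP90B1), GRP170 (HYOU1) and calreticulin (CALR), from position -250 to -1 before the start. Capitals mark the fixed letters of a match, so an ERSE read on the reverse strand shows as CGTGG, 9 bases, ATTGG.
HSPA5: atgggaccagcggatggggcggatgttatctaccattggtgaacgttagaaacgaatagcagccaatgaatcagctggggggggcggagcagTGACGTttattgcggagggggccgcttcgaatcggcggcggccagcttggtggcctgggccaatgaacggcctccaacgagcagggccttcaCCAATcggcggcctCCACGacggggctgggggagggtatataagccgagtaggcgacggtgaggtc
HSP90B1: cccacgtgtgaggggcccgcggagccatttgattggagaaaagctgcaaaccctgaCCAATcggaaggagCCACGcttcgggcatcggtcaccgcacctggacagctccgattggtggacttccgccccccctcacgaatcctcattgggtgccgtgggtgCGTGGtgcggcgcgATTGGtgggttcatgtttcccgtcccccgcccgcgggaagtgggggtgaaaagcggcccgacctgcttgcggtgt
HYOU1: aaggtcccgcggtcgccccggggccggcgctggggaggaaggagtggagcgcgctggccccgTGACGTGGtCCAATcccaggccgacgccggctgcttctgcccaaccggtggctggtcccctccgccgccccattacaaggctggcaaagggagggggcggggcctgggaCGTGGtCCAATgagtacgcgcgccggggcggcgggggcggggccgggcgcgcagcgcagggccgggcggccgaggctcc
CALR: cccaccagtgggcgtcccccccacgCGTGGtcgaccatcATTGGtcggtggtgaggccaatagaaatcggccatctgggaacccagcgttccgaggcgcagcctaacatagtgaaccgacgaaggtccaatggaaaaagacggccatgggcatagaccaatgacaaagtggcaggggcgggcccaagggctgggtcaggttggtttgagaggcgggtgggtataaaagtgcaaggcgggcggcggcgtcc
These lie at chr9:125241344-125241593 (minus strand), chr12:103930160-103930409 (plus), chr11:119057206-119057455 (minus) and chr19:12938359-12938608 (plus). BiP held an ERSE at -66 to -48 and ACGTCA on the reverse strand at -158 to -153. HSP90B1 held an ERSE at -194 to -176 and another on the reverse strand at -89 to -71. HYOU1 held 2 copies of ERSE-II on the reverse strand, at -185 to -175 and -79 to -69, and the first overlaps TGACGTGG at -188 to -181, whose reverse strand is also the ACGTCA match. CALR held an ERSE on the reverse strand at -225 to -207.

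The other stress elements are shown as short stretches around the match. Those of SDF2L1, CRELD2 and FICD have 20 bases on each side, and that of CANX has 5.
SDF2L1: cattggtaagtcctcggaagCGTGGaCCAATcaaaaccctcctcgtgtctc
CRELD2: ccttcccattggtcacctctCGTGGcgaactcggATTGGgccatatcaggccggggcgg
FICD: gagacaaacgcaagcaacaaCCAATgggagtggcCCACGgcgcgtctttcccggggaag
CANX: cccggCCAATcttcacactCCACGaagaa
These lie on the plus strand at chr22:21642094-21642144, chr22:49918534-49918592, chr12:108515103-108515161 and chr5:179698773-179698801 of GRCh38.p14. SDF2L1 held an ERSE-II, while CRELD2, FICD and CANX each held an ERSE, that of CANX within 3 of its 4 windows. An ERSE or ERSE-II was thus found for 8 of the 10 chaperones, all but MANF and SIL1. Of all 27305 genes in the promoter table, 44 (0.161%) held either one. Among other ER folding genes 2 of 26 matched genes held one (PDIA6 and ERO1B), among stress sensors and transcription factors 1 of 7 (XBP1), and among 13 relatives of the chaperones outside the ER lumen set none did. ERSE alone was found in 0.0769% of the 35116 windows, ERSE-II in 0.0541%, TGACGTGG in 0.729% and ACGTCA in 7.98%. ER chaperone genes were known for these elements before the search, so the contrast with other genes was not a test. A match is a string of letters, not a tested site, and a missing match says only that these letters are not in this window.

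**Figure D1:**
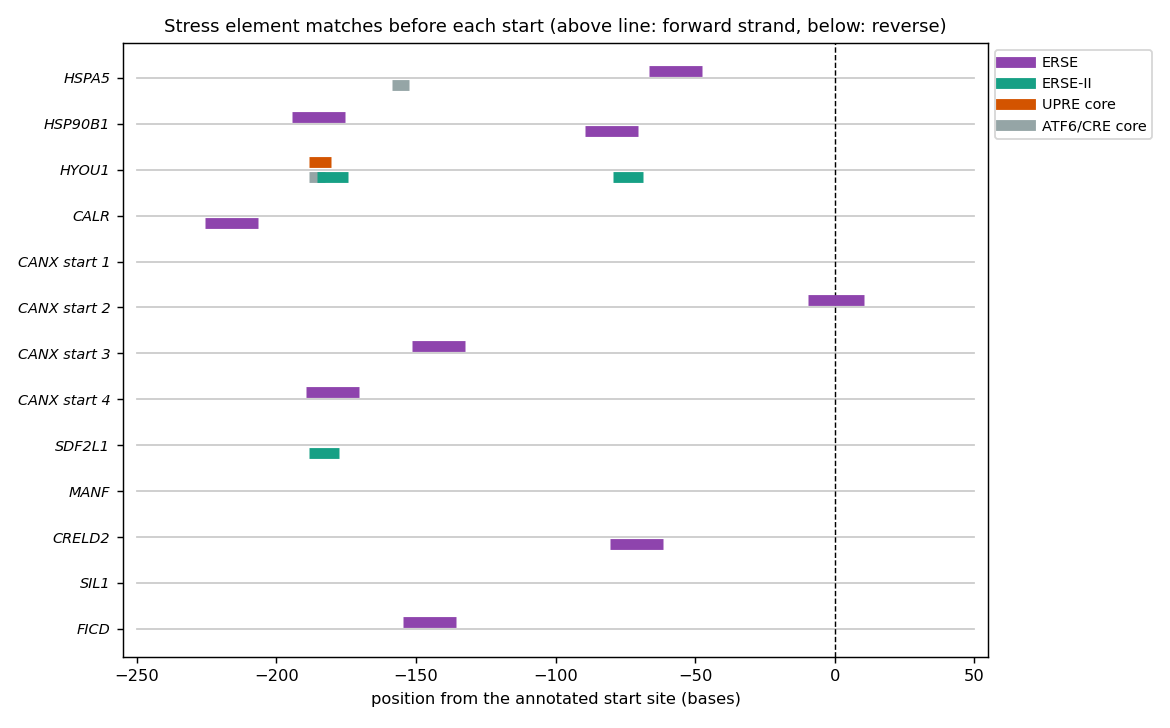
Matches to 4 motifs in the 13 RefSeq promoter windows of the 10 chaperone genes, by position in bases from the annotated start (dashed line). Bars above a line are on the forward strand and bars below on the reverse strand; MANF, SIL1 and the first CANX start show no match.

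The first question was how far tunicamycin raised the ER chaperones in each genotype. All 10 rose in WT, in koCARM1 and in shXBP1 cells, and in each genotype every tunicamycin library lay above every control library for every one of the 10 genes. The share of all genes whose libraries separate in this way was not counted, here or in the comparisons below. Of all genes tested, 22.0% were called higher and 19.9% lower in WT, 20.6% and 18.8% in koCARM1, and 19.2% and 19.0% in shXBP1 (edgeR, false discovery rate 5%). The median log2 fold change of the 10 chaperones was 2.58 in WT, 2.58 in koCARM1 and 2.23 in shXBP1, where the median of all tested genes was 0. Genes that overlap these on either strand (MIR3652, TTC41P and UQCC6 at HSP90B1, HMGB3P22 and CBY3 at CANX, ENSG00000255114 at HYOU1, ENSG00000267458 at CALR, ALG12 at CRELD2, SART3 at FICD, and at SIL1 RPL12P21, ENSG00000249593, RNA5SP194, RNU6-572P, SNORA74 and SNORA74A) could share reads, since the strand setting of the counting is not given in the sources used here. The split of all calls depends on scaling: 52.5% of calls in WT and 52.2% in koCARM1 were upward, and 41.3% and 41.5% when libraries were scaled by their totals alone. The 10 calls of each genotype, chaperones only, kept their direction and passed the threshold under all alternatives run. In bulk RNA, fewer expressing cells and less RNA per cell cannot be told apart.

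Together the 10 genes took 0.464% ± 0.013 (SD, n = 3) of library counts in WT control cells and 2.05% ± 0.0276 after tunicamycin. In koCARM1 cells the share went from 0.358% ± 0.00247 to 2.18% ± 0.017. In shXBP1 cells it went from 0.450% ± 0.0108 to 1.78% ± 0.0358. HSPA5 alone made up 0.137%, 0.0911% and 0.109% of counts under control conditions in WT, koCARM1 and shXBP1, and 1.09%, 1.19% and 0.828% after tunicamycin. After tunicamycin the other 9 genes together took 0.968% in WT, 0.986% in koCARM1 and 0.950% in shXBP1, less than BiP in the first 2 genotypes and more than BiP in shXBP1.

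HSPA5 (ENSG00000044574, GRCh37 chr9:127997132-128003661, minus strand) read 1281, 1302 and 1244 CPM in the 3 WT control libraries and 10824, 10485 and 10716 CPM in the 3 WT tunicamycin libraries. In koCARM1 it read 986, 982 and 982 CPM without and 13026, 13008 and 13203 CPM with tunicamycin. In shXBP1 it read 1043, 1012 and 1018 CPM without and 7970.1, 8235 and 8171 CPM with it. The 6 groups did not overlap, and their order from low to high was koCARM1 ctr, shXBP1 ctr, WT ctr, shXBP1 TM, WT TM, koCARM1 TM. The log2 fold change with tunicamycin was 3.08 ± 0.0445 (SE) in WT, an 8.44-fold rise, 3.77 ± 0.0263 in koCARM1, a 13.6-fold rise, and 2.98 ± 0.0284 in shXBP1, a 7.89-fold rise.

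HYOU1, SIL1, FICD and SDF2L1 encode proteins that act directly on BiP or its cofactors. GRP170 (HYOU1) and SIL1 are nucleotide exchange factors that release ADP from BiP, FICD adds and removes AMP on BiP, and SDF2L1 forms a complex with the J-domain protein DNAJB11.

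HYOU1 (ENSG00000149428, GRCh37 chr11:118914899-118927938, minus strand) read 140.1, 139.8 and 128 CPM in WT control libraries and 951, 1005 and 1007 CPM with tunicamycin. In koCARM1 these were 79.9, 82.8 and 79.2 CPM, then 678, 658 and 645 CPM. In shXBP1 they were 143, 136.5 and 138 CPM, then 886.5, 925 and 879 CPM. Log2 fold changes with tunicamycin were 2.87 in WT, 3.07 in koCARM1 and 2.68 in shXBP1. The koCARM1 libraries lay below all WT libraries both without and with tunicamycin.

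SDF2L1 (ENSG00000128228, GRCh37 chr22:21996591-21998588, plus strand) read 145 CPM in each of the 3 WT control libraries and 918, 1132 and 1073 CPM with tunicamycin. In koCARM1 it rose from 62.1, 60.3 and 58.2 CPM to 796, 736 and 724 CPM, a 12.8-fold rise against 7.25-fold in WT. In shXBP1 it rose from 197, 186 and 178 CPM to 983, 1073 and 1068 CPM, a 5.54-fold rise. The koCARM1 libraries were the lowest under both conditions, and shXBP1 libraries were the highest under control conditions.

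FICD (ENSG00000198855, GRCh37 chr12:108909054-108919614, plus strand, overlapping SART3 on the other strand) read 7.57, 7.29 and 4.68 CPM in WT control libraries. It read 105, 93.0 and 105 CPM there with tunicamycin, a log2 fold change of 3.98 ± 0.121, or 15.7-fold. In koCARM1 it went from 12.96, 13.7 and 11.3 CPM to 74.1, 73.5 and 72.7 CPM, a 5.9-fold rise. In shXBP1 it went from 5.34, 6.03 and 5.33 CPM to 58.8, 53.9 and 55.2 CPM, a 9.98-fold rise. FICD was thus highest in koCARM1 without tunicamycin and highest in WT with it. SIL1 (ENSG00000120725, GRCh37 chr5:138282413-138629246, minus strand, which overlaps the pseudogene RPL12P21 on its own strand) moved least among these 4, from 10.4, 11.8 and 10.9 CPM to 19.0, 23.6 and 24.1 CPM in WT. In koCARM1 it read 14.3, 13.4 and 14.6 CPM without and 24.2, 21.4 and 23.1 CPM with tunicamycin, and in shXBP1 11.8, 11.9 and 11.5 CPM, then 20.9, 20.2 and 22.5 CPM. With tunicamycin the 3 genotypes overlapped. Its log2 fold change was 1.03 in WT, 0.74 in koCARM1 and 0.84 in shXBP1.

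HSP90B1 encodes GRP94, the HSP90 of the ER, which folds a limited set of clients including integrins and Toll-like receptors. HSP90B1 (ENSG00000166598, GRCh37 chr12:104323885-104347709, plus strand) read 815, 825 and 752 CPM in WT control libraries and 2432, 2427 and 2476 CPM with tunicamycin. In koCARM1 it read 905, 874 and 873 CPM, then 4293, 4161 and 4066 CPM. In shXBP1 it read 828, 830.3 and 785 CPM, then 2266, 2281 and 2289 CPM. WT and shXBP1 libraries overlapped without tunicamycin, and koCARM1 libraries lay above both under each condition. The log2 fold change was 1.63 ± 0.0494 in WT, 2.27 ± 0.0298 in koCARM1 and 1.48 ± 0.0336 in shXBP1.

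Calreticulin (CALR) and calnexin (CANX) are lectin chaperones that hold glycoproteins by a monoglucosylated N-glycan, the first soluble and the second anchored in the membrane. CALR (ENSG00000179218, GRCh37 chr19:13049392-13055303, plus strand) read 1042, 1006 and 955 CPM in WT control libraries and 1892, 2295 and 2201 CPM with tunicamycin. In koCARM1 it read 695, 675 and 676 CPM, then 1753, 1637 and 1660.3 CPM, and in shXBP1 1109.5, 1018 and 1008 CPM, then 2155, 2424 and 2408 CPM. CANX (ENSG00000127022, GRCh37 chr5:179105629-179158642, plus strand) read 680.0, 649 and 604 CPM in WT control libraries and 1113, 1129.9 and 1135 CPM with tunicamycin. In koCARM1 it read 928, 953 and 899.6 CPM, then 1653, 1646 and 1646 CPM, and in shXBP1 699, 657 and 655 CPM, then 1103, 1212 and 1157 CPM. Of the 10 genes CANX had the smallest log2 fold change in WT and shXBP1, at 0.82 and 0.78, and SIL1 had the smallest in koCARM1. CALR rose by 1.10, 1.34 and 1.15 on the log2 scale in WT, koCARM1 and shXBP1.

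MANF and CRELD2 encode small ER proteins that are also secreted when the ER is stressed, MANF being a binding partner of BiP. MANF (ENSG00000145050, GRCh37 chr3:51422722-51426828, plus strand) read 212, 215 and 222 CPM in WT control libraries and 952, 1121 and 1097 CPM with tunicamycin. In koCARM1 it rose from 189, 194 and 194 CPM to 1711, 1579 and 1586 CPM, an 8.66-fold rise against 4.93-fold in WT, and in shXBP1 from 285, 257 and 243 CPM to 1071, 1109.7 and 1114 CPM, a 4.17-fold rise. CRELD2 (ENSG00000184164, GRCh37 chr22:50311815-50321188, plus strand, overlapping ALG12 on the other strand) read 79.2, 79.9 and 75.3 CPM in WT control libraries and 608, 574 and 629.8 CPM with tunicamycin. In koCARM1 it rose from 27.4, 32.2 and 29.1 CPM to 178, 170.1 and 178 CPM, and in shXBP1 from 79.3, 84.3 and 86.0 CPM to 439, 455 and 436 CPM. CRELD2 in koCARM1 with tunicamycin thus stayed below every WT tunicamycin library, at a fold rise of 6.08 against 7.79 in WT and 5.29 in shXBP1.

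**Figure D2:**
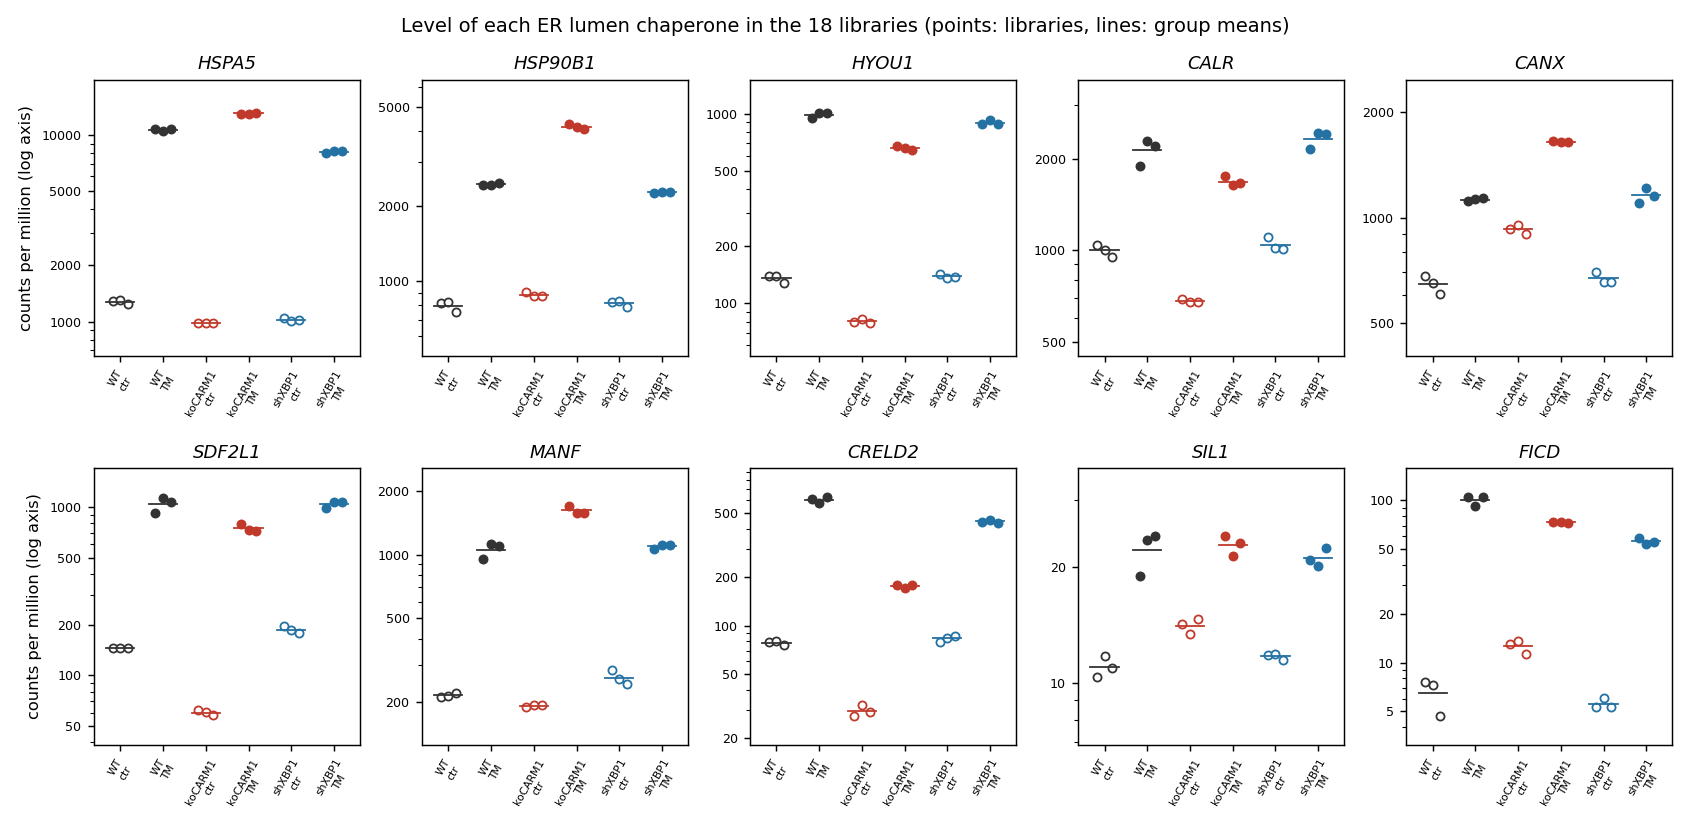
Level of each of the 10 chaperone genes in CPM on a log axis, 1 point per library (open: control, filled: tunicamycin) with group means as lines. Tunicamycin libraries lie above control libraries of the same genotype in all panels, and the order of genotypes differs between genes.

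**Figure D3:**
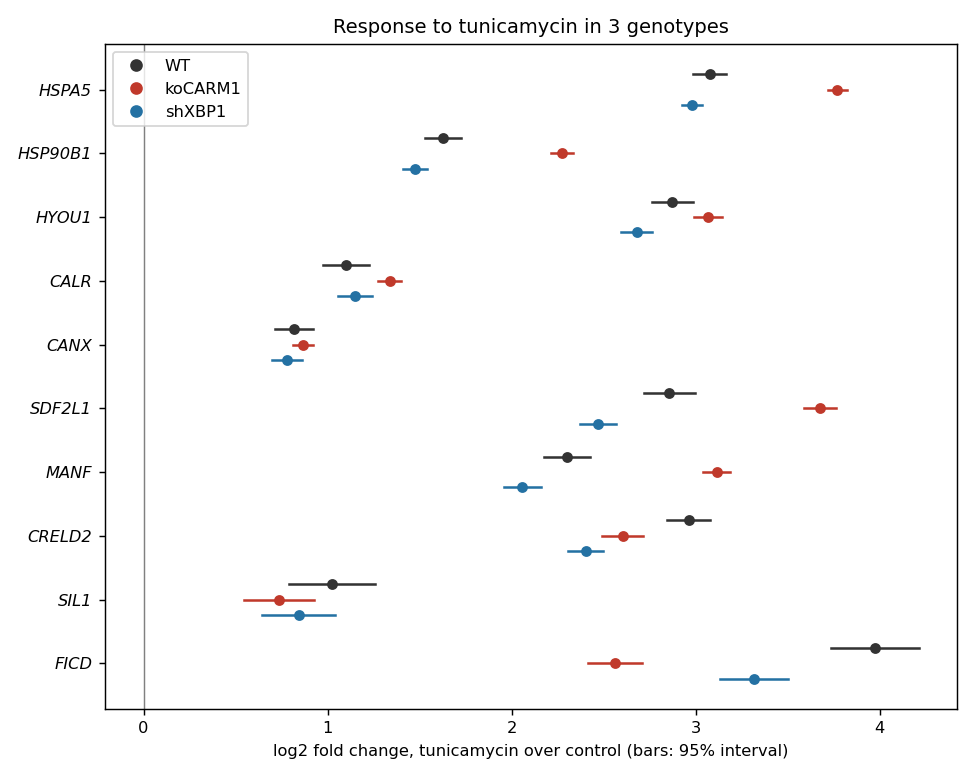
Log2 fold change of each gene with tunicamycin over control in WT, koCARM1 and shXBP1 cells, with 95% intervals. FICD has the largest response in WT (3.98) and HSPA5 the largest in koCARM1 (3.77), and SIL1 and CANX have the smallest in each genotype.

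The second question was how koCARM1 cells differed from WT in chaperone levels. Under control conditions 6 of the 10 genes were lower and 4 higher. No gene's libraries overlapped, but how many of all genes separate in this way was not counted. Among all genes tested 36.9% were called lower and 37.5% higher, so that a call was common in this comparison. The lower genes were CRELD2, with a log2 difference of -1.45 ± 0.0724 (SE), SDF2L1 (-1.31 ± 0.0523), HYOU1 (-0.80 ± 0.0552), CALR (-0.60 ± 0.042), HSPA5 (-0.42 ± 0.0368) and MANF (-0.21 ± 0.0445). The higher ones were FICD (0.93 ± 0.169), CANX (0.48 ± 0.0468), SIL1 (0.31 ± 0.113, adjusted p = 0.0216) and HSP90B1 (0.10 ± 0.0434, adjusted p = 0.0414). HSP90B1 turned to -0.07 when libraries were scaled by their totals, which moves the median of all genes by -0.17, and its call was lost without any 1 of the 3 koCARM1 control libraries (adjusted p = 0.0601 to 0.16). SIL1 lost its call without WT control replicate 1, koCARM1 control replicate 1 or koCARM1 control replicate 3 (adjusted p = 0.0575, 0.0631 and 0.0597).

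With tunicamycin, 4 genes were higher in koCARM1 than in WT, where 38.4% of all genes were called higher, and 5 were lower, where 36.8% were. The higher genes were HSP90B1, with a log2 difference of 0.78 ± 0.0341, MANF (0.63 ± 0.0556), CANX (0.56 ± 0.034) and HSPA5 (0.30 ± 0.0295). The lower ones were CRELD2 (-1.78 ± 0.0461), HYOU1 (-0.57 ± 0.0397), SDF2L1 (-0.46 ± 0.0638), FICD (-0.45 ± 0.0586) and CALR (-0.33 ± 0.0581). SIL1 differed by 0.04, with a 95% interval of -0.16 to 0.25, and its libraries overlapped. HSPA5 and MANF were thus below WT without tunicamycin and above WT with it, FICD was above and then below, and HYOU1, CALR, SDF2L1 and CRELD2 were below under both conditions.

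The difference between the responses themselves was tested as an interaction of genotype and tunicamycin. It was past the threshold for 6 of the 10 genes in koCARM1 cells, 4 with a larger response than WT, where 10.5% of all genes were called, and 2 with a smaller one, where 12.4% were. Of all calls in this test 45.8% were upward, and 54.6% when libraries were scaled by their totals alone. The larger responses were those of SDF2L1, by 0.80 ± 0.0899 on the log2 scale (adjusted p = 1.55e-06), MANF, by 0.80 ± 0.0756 (1.66e-07), HSPA5, by 0.67 ± 0.0444 (1.06e-09), and HSP90B1, by 0.63 ± 0.0558 (6.69e-08). The smaller ones were those of FICD, with a difference of -1.43 ± 0.16 (adjusted p = 1.45e-06), and CRELD2, with -0.38 ± 0.0819 (0.00182). HYOU1 (0.18, adjusted p = 0.0589) and CALR (0.22, adjusted p = 0.0513) lay just beyond the threshold, and passed it in 12 and 11 of 21 alternatives, among them the loss of any 1 of the 6 WT libraries and a fit with DESeq2. CANX differed by 0.03, with a 95% interval of -0.09 to 0.15, and passed only without WT control replicate 3 (0.14, adjusted p = 0.0452). SIL1 differed by -0.31, with an interval of -0.61 to -0.01 and an adjusted p of 0.159.

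The third question was how shXBP1 cells, which share with koCARM1 the WT libraries as control, differed from WT. Under control conditions 2 of the 10 genes were higher, where 2.07% of all genes were called higher, and 1 was lower, where 3.03% were. SDF2L1 was higher by 0.36 ± 0.0543 on the log2 scale and MANF by 0.27 ± 0.0601, and the shXBP1 libraries of both lay above all 3 WT libraries. HSPA5 was lower by a log2 difference of -0.32 ± 0.0405, with no overlap. MANF lost its call without WT control replicate 1 or 2 or shXBP1 control replicate 1 or 2 (adjusted p = 0.0905, 0.0771, 0.05001 and 0.0574). The other 7 genes overlapped between the groups. Of these, 6 had 95% intervals within -0.14 and 0.31, and that of FICD ran from -0.60 to 0.14.

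With tunicamycin, 5 of the 10 genes were lower in shXBP1 than in WT, where 8.55% of all genes were called lower. FICD differed by -0.85 ± 0.0663, CRELD2 by -0.45 ± 0.0452, HSPA5 by -0.39 ± 0.0281, HYOU1 by -0.14 ± 0.0405 (adjusted p = 0.0293) and HSP90B1 by -0.10 ± 0.0326 (adjusted p = 0.0483). The libraries of each of these 5 genes did not overlap, which was not counted over all genes. The call of HSP90B1 was lost in 11 of 15 alternatives. Among these were DESeq2 (adjusted p = 0.0521), DESeq2 size factors (0.0536), library totals without TMM (0.0546), all libraries in 1 fit (0.0586) and no low count filter (0.0916). It was also lost without WT TM replicate 3 or any 1 of the shXBP1 TM libraries (adjusted p = 0.109 to 0.182). The call of HYOU1 was lost without WT TM replicate 2 or 3 or shXBP1 TM replicate 1 or 3 (0.0544 to 0.148). edgeR called 0 of the 10 genes higher, where 6.99% of all genes were called, as did DESeq2, and 1 gene, CALR (0.13, interval 0.01 to 0.25), had an unadjusted p below 0.05. CALR passed the threshold without WT TM replicate 2 (0.19, adjusted p = 0.0438). CANX, SDF2L1, MANF and SIL1 differed by 0.04, 0.00, 0.06 and -0.07, with overlapping libraries.

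**Figure D4:**
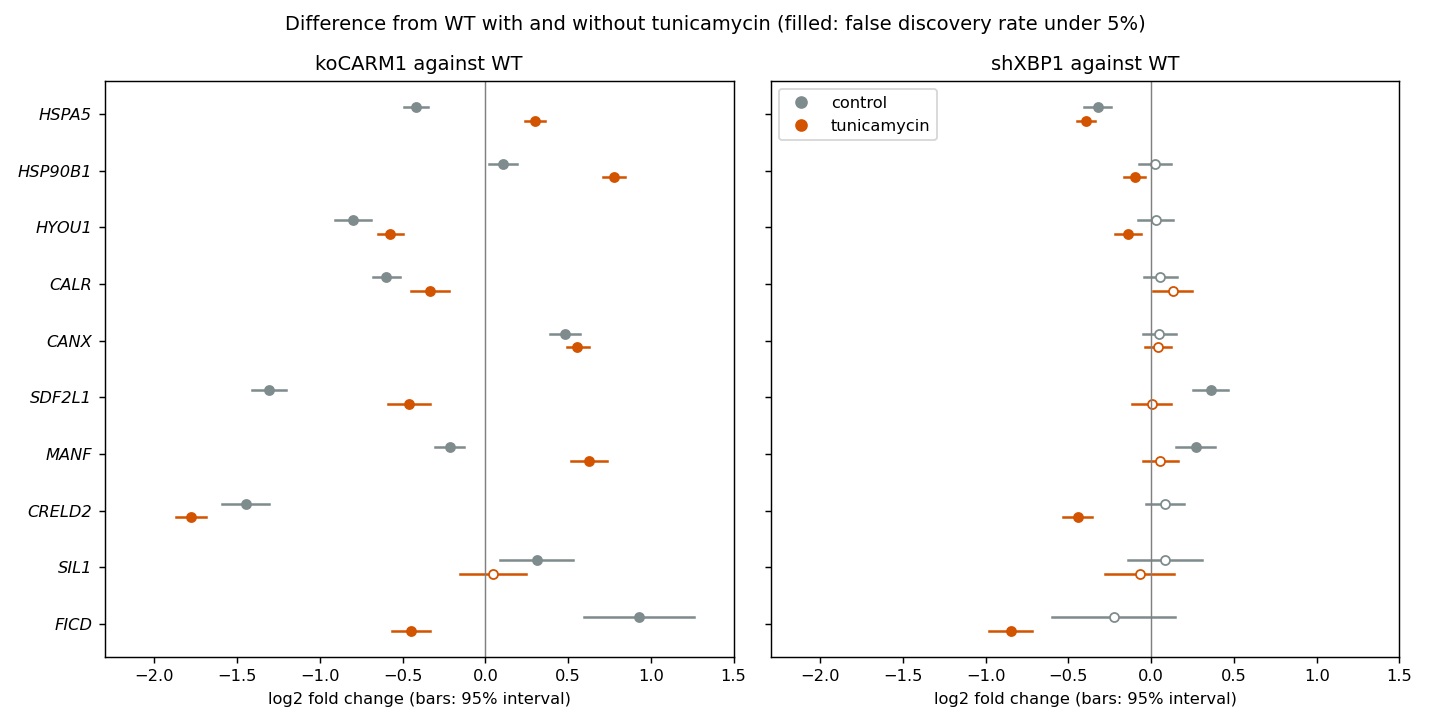
Log2 difference of koCARM1 (left) and shXBP1 (right) from WT for each gene, under control conditions and with tunicamycin, with 95% intervals; filled points passed the threshold. In koCARM1, HSPA5 and MANF lie below 0 without and above 0 with tunicamycin; in shXBP1, FICD (-0.85) and CRELD2 (-0.45) lie farthest below 0 with tunicamycin.

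For shXBP1 the interaction term was below 0 for 9 of the 10 genes, as it was for 49.99% of all genes, and past the threshold for 2 of them, where 1.67% of all genes were called lower. The response of CRELD2 differed by -0.55 ± 0.0709 on the log2 scale (adjusted p = 0.000155) and that of SDF2L1 by -0.38 ± 0.0898 (adjusted p = 0.0279). The call of CRELD2 held in every leave-one-out fit, at -0.59 to -0.52. That of SDF2L1 was lost in 8 of 12, namely without WT control replicate 1 or 2, WT TM replicate 2 or 3, shXBP1 control replicate 1 or 2 or shXBP1 TM replicate 1 or 3, with adjusted p from 0.0526 to 0.094. FICD had the largest difference, -0.65 ± 0.177, at an adjusted p of 0.0664, and passed by DESeq2 (0.0123) and without WT control replicate 1 (-0.77, 0.0403) or WT TM replicate 2 (-0.70, 0.0458). No gene was called with a larger response, by edgeR, by DESeq2 or at an unadjusted p below 0.05, against 0.364% of all genes by edgeR. For smaller responses the counts were 2 by edgeR, 3 by DESeq2 and 6 at an unadjusted p below 0.05. HSPA5 differed by -0.09, with a 95% interval of -0.18 to 0.00, and its level was lower in shXBP1 both without and with tunicamycin.

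**Figure D5:**
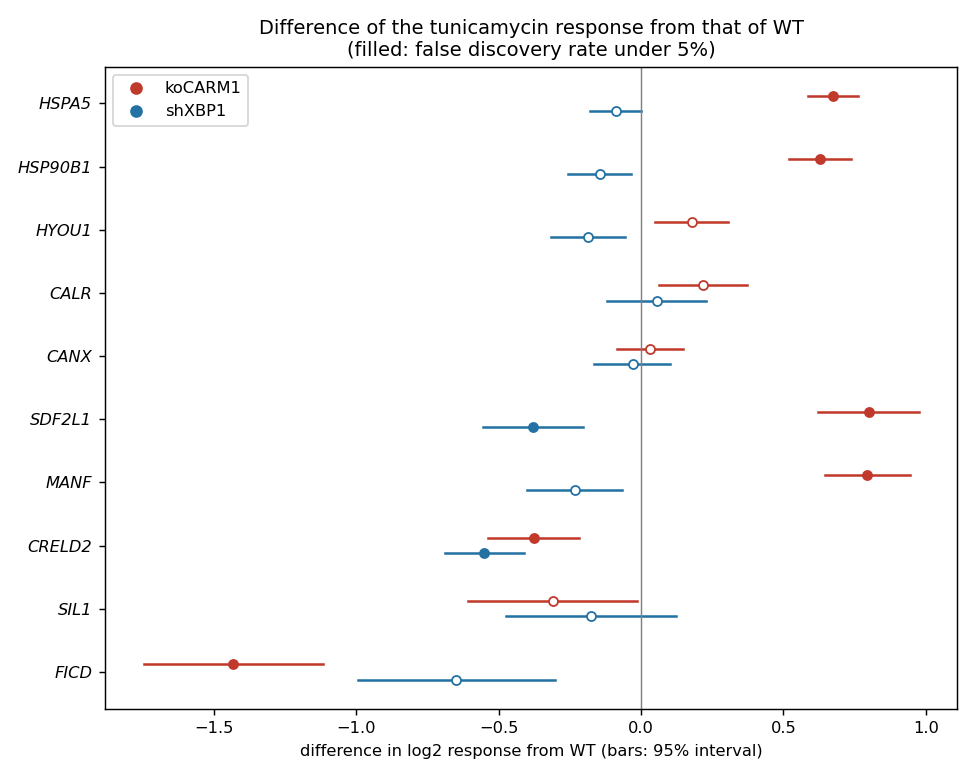
Difference of the log2 tunicamycin response from that of WT for each gene in koCARM1 and shXBP1 cells, with 95% intervals; filled points passed the threshold. In koCARM1 the differences run from -1.43 (FICD) to 0.80 (SDF2L1), and in shXBP1 from -0.65 (FICD) to 0.05 (CALR).

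The folding partners of these chaperones, 32 genes for J-domain proteins, disulfide isomerases and oxidases, glucosidases, prolyl isomerases, KDEL receptors and other folding factors, had lower medians than the chaperones, the median of all genes being 0. With tunicamycin 29 of 32 were higher and 1 lower in WT (median log2 fold change 0.98), 27 and 2 in koCARM1 (0.90) and 26 and 2 in shXBP1 (0.79). Of all genes 22.0%, 20.6% and 19.2% were called higher and 19.9%, 18.8% and 19.0% lower in these genotypes. DNAJB9, a J-domain protein that keeps BiP on IRE1, rose most, by 3.82 in WT, 3.46 in koCARM1 and 3.52 in shXBP1. DNAJC3, a J-domain protein that also inhibits PERK, was among the 3 largest in each genotype and rose by 2.69, 2.57 and 2.29. ERO1LB (ERO1B), an oxidase that recharges disulfide isomerases, was second in WT (3.36) and shXBP1 (2.93), and PDIA4, a disulfide isomerase, was second in koCARM1 (2.67).

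Against WT, 14 of the 32 partners were lower and 6 higher in koCARM1 without tunicamycin, and 20 were lower and 8 higher with it. Of all genes 36.9% were lower and 37.5% higher, then 36.8% and 38.4%. The partners' median log2 difference was -0.06 without tunicamycin and -0.46 with it, where that of all genes was -0.03 and -0.02. Among called partners whose mean log2 CPM was 3 or more, from which all leading genes here were taken, the 3 largest differences were those of HSPA13 (2.09), FKBP11 (1.82) and KDELR3 (1.70) without tunicamycin, and of FKBP11 (3.01), FKBP10 (-1.74) and KDELR3 (1.36) with it. HSPA13 is an HSP70 relative in microsomes, FKBP10 and FKBP11 are prolyl isomerases, and KDELR3 retrieves ER proteins from the Golgi. The response differed from WT in 22 of 32, larger in 5 and smaller in 17, led by HSPA13 (-1.21), FKBP11 (1.14) and ERP44 (-1.13). Of all genes 10.5% were called with a larger response and 12.4% with a smaller one. In shXBP1 1 partner, the collagen chaperone SERPINH1 (-0.57), passed without tunicamycin and 19 were lower with it, led by KDELR3 (-1.21), FKBP14 (-0.93) and MOGS (-0.91). Of all genes 3.03% were called lower without tunicamycin and 8.55% with it. The shXBP1 response was smaller for 6 of 32, where 1.67% of all genes were called. The largest were KDELR3 (-1.10), MOGS (-0.97) and FKBP14 (-0.87), and the other 26 did not pass.

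The sensors and transcription factors of the stress response were read as a list of 7. With tunicamycin 7 of 7 rose in WT, 6 of 7 in koCARM1 and 7 of 7 in shXBP1. Of all genes 22.0%, 20.6% and 19.2% were called higher there. DDIT3, which encodes CHOP, rose by 4.61, 5.02 and 4.48 on the log2 scale in the 3 genotypes. EIF2AK3 rose by 2.23, 1.89 and 2.27, ATF6 by 1.89 in WT, XBP1 by 2.10 in koCARM1 and ATF4 by 1.74 in shXBP1. Against WT, 4 of the 7 were higher and 2 lower in koCARM1 without tunicamycin, and 2 were higher and 3 lower with it, where 37.5% of all genes were higher and 36.9% lower, then 38.4% and 36.8%. The largest differences were in ERN1 (0.56), DDIT3 (0.54) and XBP1 (-0.47) without tunicamycin and in DDIT3 (0.97), ATF6 (-0.78) and EIF2AK3 (-0.76) with it. In shXBP1 XBP1 alone passed without tunicamycin. With tunicamycin XBP1 and ATF6 (-0.43) were lower, and ATF6 was the 1 gene of the 7 whose response differed from WT (-0.44). Of all genes 3.03% were called lower without tunicamycin, 8.55% lower with it and 1.67% with a smaller response. The koCARM1 response differed from WT in 4 of the 7, with ATF6 (-0.82), ATF4 (-0.52) and DDIT3 (0.39) the largest. It was called larger for 10.5% and smaller for 12.4% of all genes.

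Relatives of the chaperones that work outside the ER lumen, or are paralogs of members, were read beside them. Of 13 such genes 4 rose and 5 fell with tunicamycin in WT, 6 rose and 6 fell in koCARM1, and 3 rose and 5 fell in shXBP1. Among all genes 22.0% rose and 19.9% fell in WT, 20.6% and 18.8% in koCARM1, and 19.2% and 19.0% in shXBP1. HSPA8, the constitutive HSP70 of the cytosol, went from 1812, 1747 and 1838 CPM to 425, 388 and 411 CPM in WT, a log2 fold change of -2.13 ± 0.0518, and changed by -1.76 in koCARM1 and -2.12 in shXBP1. BiP and HSPA8 thus moved in opposite directions in every genotype. The cytosolic HSP90 genes HSP90AA1 (-0.50, -0.74 and -0.53) and HSP90AB1 (-0.28, -0.24 and -0.27), and HSPH1, a cytosolic exchange factor related to HYOU1 (-0.85, -1.09 and -0.84), were lower in WT, koCARM1 and shXBP1. HSPA9, the mitochondrial HSP70, rose by 1.01, 1.07 and 0.95. TRAP1, the mitochondrial HSP90, rose by 0.26 in WT and 0.25 in koCARM1, and HSPA4, another relative of HYOU1 in the cytosol, by 0.11 in koCARM1.

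Paralogs of the members moved both ways. CRELD1 rose with tunicamycin by 2.75, 2.07 and 2.58 on the log2 scale in WT, koCARM1 and shXBP1, as CRELD2 did, while SDF2, the paralog of SDF2L1, was lower, at -0.39, -0.21 and -0.47. CLGN, a calnexin paralog known for its role in sperm development, went from 16.5, 16.3 and 17.7 CPM to 53.1, 54.7 and 56.5 CPM in WT and rose by 1.71. In koCARM1 CLGN was already at 69.6, 64.7 and 65.7 CPM without tunicamycin and rose by 0.23, a response smaller than that of WT by an interaction of -1.50 ± 0.0898. CDNF, the paralog of MANF, reached 1.07 CPM in its highest library. HSPBP1, a cytosolic exchange factor, rose by 0.21 in koCARM1 (adjusted p = 0.0296) and stood at 0.11 in WT and 0.20 in shXBP1 (adjusted p = 0.0656). HSPA1A, whose reads can be shared with its near-identical copy HSPA1B, was at or below 0.937 CPM in every WT and shXBP1 library, at 337, 378 and 348 CPM in koCARM1 control libraries and at 64.4, 64.1 and 61.8 CPM in koCARM1 tunicamycin libraries, a log2 fold change of -2.45. In koCARM1 against WT 4 of the 13 relatives were higher and 6 lower without tunicamycin, and 5 higher and 4 lower with it, beside the same shares of all genes, 37.5% and 36.9%, then 38.4% and 36.8%. With shXBP1 against WT, 2 of the 13 relatives passed, HSP90AB1 (0.11) and CLGN (0.25), both with tunicamycin, where 6.99% of all genes were called higher.

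Likeness of pattern to HSPA5 was measured over the 18 libraries as the root mean square difference of log2 CPM after centring each gene on its own mean. Of 9523 genes ranked, the nearest 5 outside the chaperone set were ALDH1L2 (0.28), ASNS (0.424), DNAJC3 (0.425), SYVN1 (0.438) and SEL1L (0.445). ALDH1L2 is a mitochondrial folate enzyme, ASNS makes asparagine, and SYVN1 and SEL1L form a ubiquitin ligase complex of ER-associated degradation. Among the chaperones HYOU1 ranked 6, MANF 7, FICD 12, SDF2L1 16, HSP90B1 38, CRELD2 59, CALR 164, SIL1 306 and CANX 338. Pearson's r with HSPA5 over the same libraries, which share the contrast of treatments, was 0.853 (CRELD2) to 0.986 (MANF) among them.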

How the data were processed

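RNA of 18 A1847 libraries was read as 75 nt single reads with a Lexogen 3′ mRNA kit. The authors aligned reads to hg19 (GRCh37) with bowtie2 and used RSEM to estimate counts for each Ensembl gene. The deposited expected counts are whole numbers. The submitters' processing notes name RSEM 1.2.3, while the paper's methods name a different version of it. The Ensembl release is not given in the sources used here. From these deposited counts, edgeR 4.0.16 (R 4.3.3, limma 3.58.1) was used for TMM scaling, filterByExpr (minimum count 10) and quasi-likelihood tests over 17317 genes, with Benjamini-Hochberg adjustment and a false discovery rate of 5%. Each comparison used only its own groups. Fold changes are log2 with SE, 95% intervals are ± 1.96 SE, and CPM are TMM-scaled. DESeq2 1.42.0 and other alternatives were run. The tests were also run on data simulated from WT and shXBP1 libraries, which does not cover the koCARM1 tests. In those runs false calls exceeded the rate of 5% aimed at, and many changed genes were missed.

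Labels do not say that replicates were separate cultures. The p-values weigh group differences against the spread between these libraries, which may not include that between cultures. Libraries of a group differed beyond counting noise (chi-square per degree of freedom 1.84 to 7.47).

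The 10 members and all gene lists were chosen with earlier results of these data known. Named genes were all members, CARM1, XBP1, all relatives, and per comparison the 3 largest called changes among partners and among sensors (mean log2 CPM 3 or more), plus the 5 genes nearest to HSPA5. MUC16 and other marker genes were named for the checks stated beside them. Promoters came from RefSeq (GRCh38.p14), gene positions from GENCODE on GRCh37.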

Additional observations from a re-analysis of the deposited data

Results flagged for a closer look

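For 6 of the 10 chaperones the test of the difference between responses showed that koCARM1 and WT cells responded to tunicamycin unequally, as it did with a larger response for 10.5% and a smaller one for 12.4% of all genes tested. The log2 response of koCARM1 was larger by 0.80 for SDF2L1, by 0.80 for MANF, by 0.67 for HSPA5 and by 0.63 for HSP90B1, and differed by -0.38 for CRELD2 and by -1.43 for FICD. In the koCARM1 libraries, which stood apart, PAX8, KRT7 and MSLN were present and in WT libraries near 0, as given above, and their part in these differences was not tested. FICD started from 12.7 CPM in koCARM1 and from 6.51 CPM in WT on average.

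In shXBP1 cells the same test singled out CRELD2, with a response difference of -0.55, and SDF2L1, with -0.38. The call of SDF2L1 was lost in 8 of 12 leave-one-out fits and that of CRELD2 in none. The control level of SDF2L1 in shXBP1 was above that of WT, at 187 against 145 CPM on average, and the levels with tunicamycin were 1041 CPM in both. CRELD2 was at 83.2 against 78.2 CPM without tunicamycin and at 443 against 604 CPM with it. Groups of 3 libraries were too small for the test of outlying libraries.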

How the results depend on the processing

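Of 1470 single-gene values under alternatives, 1362 kept their direction and side of the threshold, 60 lost the call, 32 gained it and 16 changed sign; the cause was not tested, beyond fewer libraries or a stricter threshold where the alternative consists of that. The 3 tunicamycin comparisons kept 10 genes higher and 0 lower in every alternative, leaving out each library included (10 to 10 and 0 to 0). For koCARM1 against WT without tunicamycin, the count of 4 higher became 2 by library totals without TMM, 2 at a false discovery rate of 1%, 1 at a fold change of at least 1.5 and 2 to 4 with a library left out. With tunicamycin, 4 higher and 5 lower became 2 and 1 at a fold change of at least 1.5. For shXBP1 without tunicamycin, 2 higher and 1 lower became 1 higher at 1%, 0 and 0 at a fold of 1.5 and 1 to 2 higher with a library left out. With tunicamycin, 0 higher became 1 without a low count filter and 0 to 1 with a library left out. The 5 lower became 4 by DESeq2, 3 at 1%, 1 at a fold of 1.5 and 3 to 5 with a library left out. The koCARM1 interaction had 4 larger and 2 smaller responses, against 4 to 7 and 2 with a library left out, the 7 without WT ctr replicate 3, and 1 smaller at a fold of 1.5. The 4 larger became 6 by DESeq2, where HYOU1 and CALR gained calls. Both also gained one by DESeq2 size factors, by library totals without TMM, without a low count filter and with 10 counts in every library. HYOU1 gained one with all libraries in 1 fit as well. The shXBP1 interaction had 2 smaller, against 1 at 1%, 0 at a fold of 1.5 and 1 to 2 with a library left out. By DESeq2 it had 3, where FICD gained a call, as FICD did without a low count filter and with all libraries in 1 fit.

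Values that changed sign were all small. By library totals without TMM they were HSP90B1 in koCARM1 control (-0.066), SIL1 in koCARM1 with tunicamycin (-0.12) and the shXBP1 interaction of CANX (0.003, and 0.003 without a low count filter). Leaving out 1 library turned SIL1 in koCARM1 with tunicamycin (-0.041 to 0.12, turned without WT TM replicate 1), HSP90B1 and HYOU1 in shXBP1 control (-0.015 to 0.054 and -0.013 to 0.048, turned without WT ctr replicate 3), SDF2L1 in shXBP1 with tunicamycin (-0.084 to 0.065, with -0.084 without WT TM replicate 1, -0.021 and -0.017 without shXBP1 TM replicate 2 and 3), MANF there (-0.016, without WT TM replicate 1), and the shXBP1 interactions of CALR (-0.007 to 0.111, turned without WT TM replicate 1) and CANX (-0.072 to 0.014, with 0.014, 0.002 and 0.005, without WT ctr replicate 3, shXBP1 ctr replicate 1 and shXBP1 TM replicate 1). SDF2L1 in shXBP1 with tunicamycin was also -0.006 when every library needed 10 counts. Without HSPA5 the summed share was 0.326% and 0.968% (WT ctr and TM), 0.267% and 0.986% (koCARM1) and 0.342% and 0.950% (shXBP1); leaving out 1 library gave 0.459 to 0.471%, 2.04 to 2.07%, 0.357 to 0.359%, 2.17 to 2.18%, 0.444 to 0.455% and 1.76 to 1.80% in the same order with HSPA5 kept. Library totals without TMM moved the median of all genes by -0.17 and -0.165 in koCARM1 against WT, and the share of upward calls in the shXBP1 interaction from 17.9% to 29.3%.

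Same-numbered libraries of different groups did not deviate together (correlations of -0.048 to 0.0387), so the numbers are not taken to pair samples. A replicate block in the fit changed the number of all calls by 0.802 to 1.05 times. With the block, HSP90B1 in koCARM1 control lost its call (0.10, adjusted p = 0.0606), CALR in shXBP1 with tunicamycin gained one (0.13, adjusted p = 0.0118), making 1 higher there, and no other chaperone call changed. SIL1 had standard errors of 0.0966 to 0.153 over the 9 comparisons. Its koCARM1 interaction of -0.31 did not pass the threshold, so differences of about that size could go undetected in these libraries.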
